A study of Mus musculus with 3 samples.

Results

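The B-cell genes examined here were Cd79a, Cd79b, Blnk, Cd22, Ms4a1, Cr2, Fcer2a and Pax5, which are 8 of the 33506 genes with a usable value in the RNAseq table. They were taken by name, as genes that B lymphocytes are known for, and the rule sets no threshold on their levels. The table lists transcripts by Ensembl identifier. For each identifier of a member the first row with a value in all 3 libraries was kept, and the kept rows were summed per gene. Of the 8 genes, 6 reached 1 FPKM in at least 1 library, and Cd79b and Pax5 did not. FPKM is the number of fragments scaled to the length of the transcript and to the size of the library, so that levels are per length and can be set beside each other between genes.

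RNA came from BALB/C mice that bore intra-kidney tumors of Renca, a mouse renal carcinoma cell line (Ch+ L+ cells, which carry the Cherry fluorochrome). No drug treatment of these mice is named. The libraries were M1 (type-1 macrophages) and M2 (macrophages of type 2), pooled from 30 tumors, and TCRb+/CD4+ T cells pooled from 4 spleens of tumor-bearing mice. The labels give both day 14 and day 16 after inoculation, and they name spleen in one field and tumor in another for the CD4 T cells. Macrophages were gated as high (M1) or intermediate (M2) for CD11b and as intermediate (M1) or high (M2) for the macrophage antigen that Emr1 encodes. The other antibodies named for this sort recognise CD45.2, TCRbeta and CD4, and no antibody named for the sort is specific to B cells. There was 1 library per cell subset, so that no ratio below has a replicate check and no test between subsets could be made. In such bulk RNA, fewer cells of a type and less RNA per cell cannot be told apart.

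B cells recognise antigen through the B cell receptor, in which a membrane immunoglobulin is held by the signalling chains Cd79a and Cd79b. Binding of antigen activates kinases, which assemble further proteins on the adaptor Blnk, while co-receptors such as Cd22 lower the signal and Cr2 raises it. The transcription factor Pax5 keeps cells in the B lineage, and Ms4a1 (CD20) and Fcer2a (CD23) mark mature B cells, which are abundant in spleen and lymph nodes.

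The labels of the libraries were checked first. All 15 measured T-cell genes, among them Cd3e and Trbc1, were highest in the library labelled M2, with a summed level of 2139 FPKM there, 6.33 FPKM in the library labelled M1 and 4.80 FPKM in that labelled CD4. All 13 macrophage genes, among them Csf1r and Emr1, were lower in the library labelled M2 than in either of the others. Their summed levels were 672 FPKM in the library labelled M2, 8672 FPKM in that labelled M1 and 13643 FPKM in that labelled CD4. These levels go against the labels M2 and CD4, so each library is called by its label throughout and each direction rests on the labels. Depth, estimated from the low values, was 60800000 fragments for the library labelled M1, 58700000 for M2 and 72300000 for CD4.

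The B-cell genes fell into groups by level. Cd79a, Ms4a1, Cr2 and Fcer2a were at 5.83 to 18.2 FPKM in the library labelled M2 and at or below 0.161 FPKM in both others. Blnk was present in all 3 libraries and was lowest in that labelled M2. Cd22 was at nearly the same level in the libraries labelled M2 and CD4 and lower in that labelled M1. Cd79b was listed at 0 in the library labelled M2, and Pax5 at 0 in all 3. In the library labelled M2 the order of the levels was Cd79a, Ms4a1, Blnk, Cd22, Fcer2a and Cr2, and with 1 library it is not known which neighbours in this order differ.

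**Figure D1:**
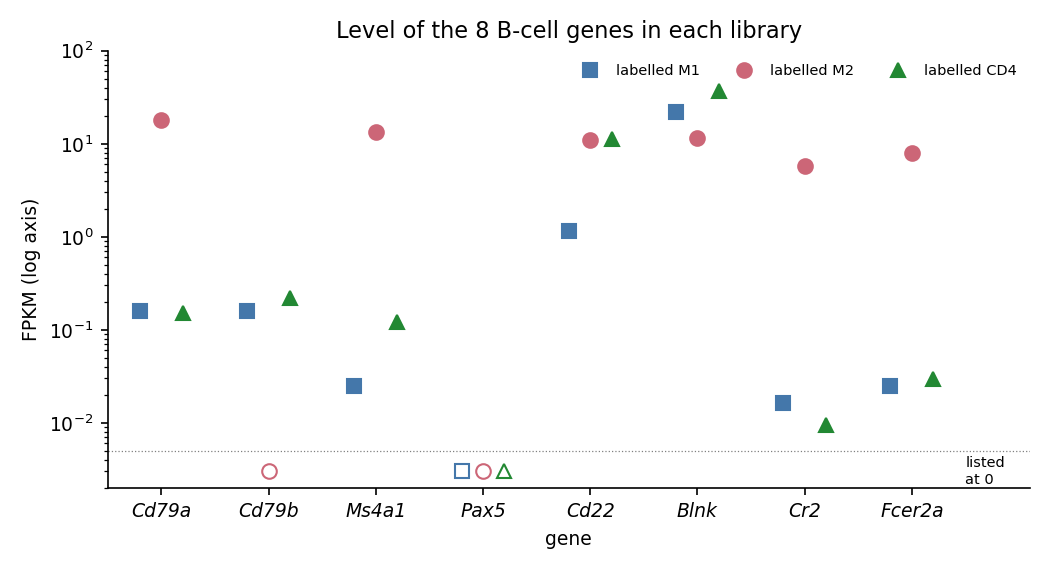
Level of each of the 8 B-cell genes in FPKM on a log axis, with 1 point for each of the libraries labelled M1 (squares), M2 (circles) and CD4 (triangles), and open symbols below the dotted line for a gene listed at 0. Cd79a, Ms4a1, Cr2 and Fcer2a lie between 5.83 and 18.2 FPKM in the library labelled M2 and at most at 0.161 FPKM in the others, while Blnk lies between 11.6 and 37.3 FPKM in all 3.

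Cd79a encodes the Ig-alpha signalling chain of the B cell receptor. The gene (ENSMUSG00000003379) lies on the forward strand of chromosome 7 from 25682400 to 25687216 in build NCBIM37, also called MM9, and has 1 annotated transcript. Cd79a was at 18.2 FPKM in the library labelled M2, 0.151 FPKM in that labelled CD4 and 0.161 FPKM in that labelled M1. From transcript length and the estimated depth, these levels stand for about 1555, 16 and 14 fragments. Of the summed FPKM of Cd79a, 98.3% lay in the library labelled M2, at 121 times the level in the library labelled CD4 and 113 times that in M1. Among genes above 0 in the library labelled M2, Cd79a was at the percentile of 82.1.

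The 150 bases before the annotated start of Cd79a are shown because it was the member with the highest level in the library labelled M2. Those of Blnk are shown as the member present in all 3 libraries. They were read from NCBIM37 on the strand of the gene, at chr7:25682250-25682399 for Cd79a and chr19:41069026-41069175 for Blnk, and lie in no annotated exon. Capitals mark a match, on either strand, to 1 of 3 motifs of factors that act in B cells: the EBF motif CCCNNGGG, the octamer ATGCAAAT and the PU.1 motif GAGGAA.
Cd79a: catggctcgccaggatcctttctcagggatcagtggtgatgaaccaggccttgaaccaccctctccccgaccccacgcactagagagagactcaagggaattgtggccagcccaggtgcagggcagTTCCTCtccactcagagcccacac
Blnk: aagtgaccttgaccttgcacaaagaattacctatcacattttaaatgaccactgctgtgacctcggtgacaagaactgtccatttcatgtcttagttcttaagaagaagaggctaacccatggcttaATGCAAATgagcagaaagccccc
The Cd79a window held 1 PU.1 match, read on the reverse strand as TTCCTC, from 24 to 19 bases before the start. The Blnk window held 1 octamer, from 23 to 16 bases before the start. Of 22380 promoter windows of protein-coding genes of the same length, 14.3% held the PU.1 motif, 1.02% the octamer and 8.50% the EBF motif. The windows of Cr2, Fcer2a and Pax5 held none of these letters. Only exact matches to these letters were sought, so that a window without a match can still hold a site for the same factor with other letters. A match describes the sequence and was not tested as a binding site, and the Cd79b and Ms4a1 windows were not analysed here.

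Cd79b encodes Ig-beta, the partner of Cd79a. Its gene (ENSMUSG00000040592) is on the reverse strand of chromosome 11 from 106172655 to 106176076. Cd79b was at 0.160 FPKM in the library labelled M1 and 0.218 FPKM in that labelled CD4, about 14 and 23 fragments, and was listed at 0 in that labelled M2. Its values were thus lowest in the library where Cd79a was highest. A level of 3 fragments on this transcript would be 0.0357 FPKM in the library labelled M2. The table held 1 row for Cd79b, for 1 of its 2 annotated transcripts and no further row of the gene. A 0 in this table was not taken as absence of the RNA, and the cause of the 0 of Cd79b was not tested. Of 78 ribosomal protein genes, which every cell uses, 8 were listed at 0 in the library labelled M2, and Rpl6 and Rps23 were so while at 10 FPKM or more in another library. In the library labelled M2, 136 genes were listed at 0 with 10 FPKM or more elsewhere, against 156 in that labelled M1 and 168 in CD4. Of the 136, 79 had a value above 0 in rows outside the rule, and Cd79b has no such rows. No ratio of FPKM without a pseudocount is given for Cd79b against the library labelled M2. Its log2 differences with a pseudocount, which enter the medians below, rest on this listing at 0.

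Blnk, the adaptor that links the receptor kinases to phospholipase C, is also known from macrophages. The gene (ENSMUSG00000061132) is on the reverse strand of chromosome 19 from 41003417 to 41069025. It was at 21.9 FPKM in the library labelled M1, 11.6 FPKM in that labelled M2 and 37.3 FPKM in that labelled CD4, about 2512, 1261 and 5113 fragments. Blnk was thus the member with the highest level of any, in the library labelled CD4. In the library labelled M2, Blnk stood at 0.310 of the level in CD4 and at 0.529 of that in M1. Blnk-002 was at 11.6, 7.07 and 18.9 FPKM in the libraries labelled M1, M2 and CD4, and Blnk-001 at 10.3, 4.51 and 18.4 FPKM in the same order. In the kept rows both variants had the order of the gene level. Over all rows Blnk-001 was at 12.4 FPKM in the library labelled M2, above the 10.3 FPKM in M1, and the Blnk gene level in M2 was 19.5 FPKM. They share 1701 bases, and only Blnk-001 has bases of its own, 396 of them, so that most fragments were divided between them by the model of Cufflinks. The retained intron variant Blnk-003 was listed at 0 in all 3 libraries.

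Cd22 encodes a sialic acid binding receptor that restrains B cell receptor signalling. The gene (ENSMUSG00000030577) is on the reverse strand of chromosome 7 from 31650421 to 31665361. Cd22 was at 1.15 FPKM in the library labelled M1, 11.0 FPKM in that labelled M2 and 11.3 FPKM in that labelled CD4, about 279, 2640 and 3237 fragments. The gene levels in the libraries labelled M2 and CD4 were 9.52 and 9.77 times that in M1 and differed from each other by -0.04 on the log2 scale of FPKM + 1. The annotated transcript behind this level was not the same one. The library labelled M2 had 11.0 FPKM on Cd22-203 and 0 on Cd22-201, while those labelled M1 and CD4 had 1.15 and 11.3 FPKM on Cd22-201 and 0 on Cd22-203. Cd22-202 was listed at 0 in all 3.

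**Figure D2:**
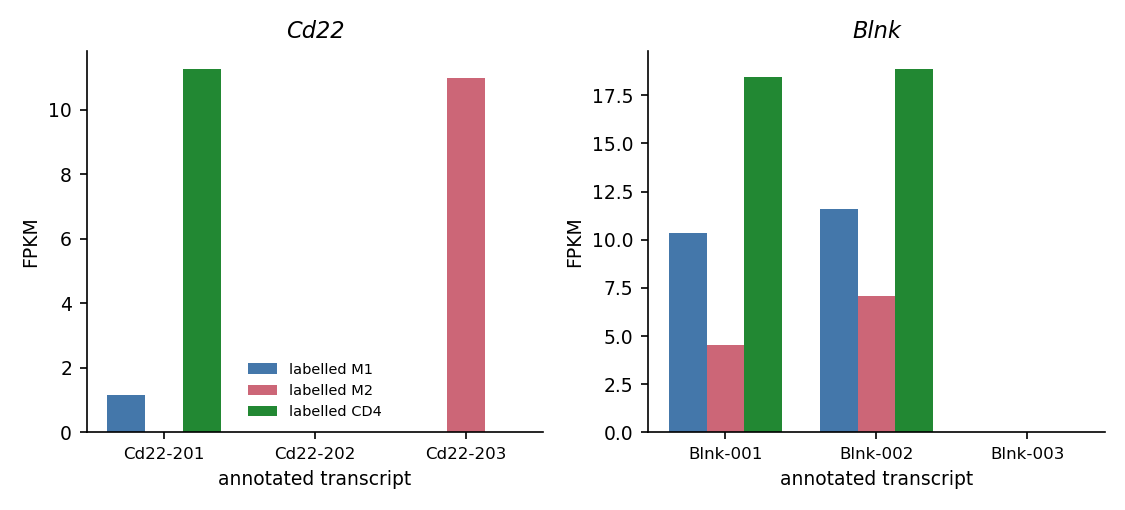
Level in FPKM of each annotated transcript of Cd22 (left) and Blnk (right) in the libraries labelled M1, M2 and CD4, with bars from 0 and 1 library each. Cd22-203 was at 11.0 FPKM in the library labelled M2 alone and Cd22-201 at 1.15 and 11.3 FPKM in those labelled M1 and CD4, while both protein-coding Blnk variants had levels in all 3.

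The Cd22 variants differ at their 5′ ends. Cd22-203 (ENSMUST00000108125) has 4097 bases in 16 exons and starts at 31665361, and Cd22-201 (ENSMUST00000019248) has 3974 bases in 14 exons and starts at 31664047, 1314 bases further in. The first exon of Cd22-201 runs from 31663831 to 31664047, and 3 exons of Cd22-203 lie upstream of it. The variants share 3755 bases, 219 are found only in Cd22-201 and 342 only in Cd22-203, so that the choice between them rests on a small part of the fragments. The bases before both starts are shown because the libraries divide at this point, and were read from the reverse strand at chr7:31664048-31664197 for Cd22-201 and chr7:31665362-31665511 for Cd22-203. Capitals mark a match to 1 of the 3 motifs.
Cd22-201: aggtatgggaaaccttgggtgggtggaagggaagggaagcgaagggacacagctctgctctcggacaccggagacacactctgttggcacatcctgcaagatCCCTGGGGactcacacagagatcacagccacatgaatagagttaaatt
Cd22-203: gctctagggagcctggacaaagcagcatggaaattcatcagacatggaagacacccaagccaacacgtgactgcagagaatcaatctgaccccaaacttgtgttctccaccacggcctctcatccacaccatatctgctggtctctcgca
The window of Cd22-201 held 1 EBF match, CCCTGGGG, from 48 to 41 bases before its start, and that of Cd22-203 held no match to the 3 motifs. Reads were not analysed here, so which start was used in a library was not tested.

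Ms4a1, a membrane protein of mature B cells, has its gene (ENSMUSG00000024673) on the reverse strand of chromosome 19 from 11324654 to 11340669. Ms4a1 was at 13.5 FPKM in the library labelled M2, 0.123 FPKM in that labelled CD4 and 0.0250 FPKM in that labelled M1, about 2001, 22 and 4 fragments. Ms4a1 had 98.9% of its sum in the library labelled M2 and stood there at 110 times the level in CD4 and 541 times that in M1. The gene overlaps 4930526L06Rik on the other strand. The use of strand in the library kit or the counting is not given in the sources used here, and reads of the overlap cannot be told apart without it.

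Cr2 encodes the complement receptors CD21 and CD35, which B cells and follicular dendritic cells carry. The gene (ENSMUSG00000026616) is on the reverse strand of chromosome 1 from 196963005 to 197002909. Cr2 was at 5.83 FPKM in the library labelled M2, 0.0164 FPKM in that labelled M1 and 0.00936 FPKM in that labelled CD4. On its transcript of 6207 bases these are about 2122, 6 and 4 fragments. Cr2 had 99.6% of its sum in the library labelled M2, the highest share of the 8 genes, and stood there at 355 times the level in M1 and 622 times that in CD4. With all rows summed, Cr2 was at 9.56, 0.0164 and 0.0296 FPKM in the libraries labelled M2, M1 and CD4. The level in CD4 was then above that in M1, through a row of Cr2-201 that the rule leaves out. The follicular dendritic cell genes Cxcl13, Madcam1 and Coch were low in all 3 libraries, with a summed level of 0.0672 FPKM in that labelled M1, 0.396 FPKM in M2 and 0.456 FPKM in CD4.

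Fcer2a encodes the low-affinity receptor for IgE. The gene (ENSMUSG00000005540) is on the reverse strand of chromosome 8 from 3681737 to 3694174. Fcer2a was at 7.92 FPKM in the library labelled M2, 0.0295 FPKM in that labelled CD4 and 0.0248 FPKM in that labelled M1, about 1042, 5 and 3 fragments. The library labelled M2 held 99.3% of the sum and stood at 269 times the level in CD4. All of the Fcer2a level lay on Fcer2a-201, and the other 4 identifiers were listed at 0 in all 3 libraries.

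Cd79a, Ms4a1, Cr2 and Fcer2a each had at least 98.3% of their summed FPKM in the library labelled M2. Among the 8117 genes at 5 FPKM or more in the library labelled M2, 281 (3.46%) reached this share. The share was set at the lowest of these members, so that they reach it by construction and the percentage only describes the cut. Of the 6 members at 5 FPKM or more in that library, the other two had lower shares there, 46.9% for Cd22 and 16.4% for Blnk.

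Pax5, the transcription factor of the B lineage, has its gene (ENSMUSG00000014030) on the reverse strand of chromosome 4 from 44544017 to 44724318. The table held 28 rows for its 16 identifiers, and in each kept row Pax5 was listed at 0 in all 3 libraries. Further rows of the same identifiers, with no value in at least 1 library, held levels above 0. Summed over all rows, Pax5 was at 6.49 FPKM in the library labelled M2, 1.48 FPKM in that labelled CD4 and 0.798 FPKM in that labelled M1. Most of this lay on Pax5-001 (ENSMUST00000014174), which had 12 rows and a highest row of 5.69 FPKM in the library labelled M2. The gene overlaps AL772319.1 on the same strand and Gm12462 on the other. Pax5 was the only member whose listing at 0 in the library labelled M2 ended when all rows were summed.

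**Figure D3:**
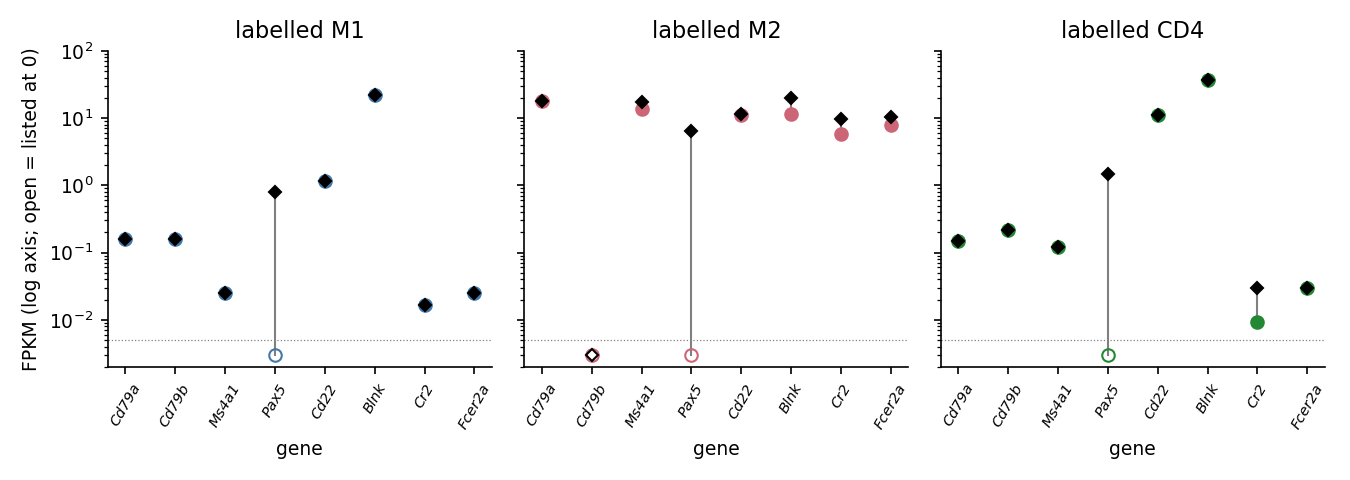
Level of each B-cell gene in FPKM on a log axis in each library, from the kept rows (circles) and from all rows of its identifiers (black diamonds), with open symbols for a gene listed at 0. For Pax5 the sum over all rows is 0.798, 6.49 and 1.48 FPKM in the libraries labelled M1, M2 and CD4 against 0 in the kept rows, and Cd79b remains listed at 0 in that labelled M2.

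Differences were then counted on the log2 scale of FPKM + 1, where a size of at least 1 is a 2-fold difference, and this scale understates the change of low genes. Against the library labelled M1, the library labelled M2 was higher in 5 of the 8 genes (Cd79a, Ms4a1, Cd22, Cr2 and Fcer2a) and lower in 0, while 6.27% of all genes were higher and 5.38% lower. The differences were 4.05 for Cd79a, 3.82 for Ms4a1, 3.12 for Fcer2a, 2.75 for Cr2 and 2.48 for Cd22, and Blnk was at -0.86. With all rows summed, Blnk was at -0.16, Pax5 at 2.06 and the higher genes numbered 6. The median over the 8 genes was 2.61, and over all genes it was 0. Against the library labelled CD4, that labelled M2 was higher in 4 genes and lower in 1, Blnk, while 6.40% of all genes were higher and 5.68% lower. Cd79a differed by 4.06, Ms4a1 by 3.69, Fcer2a by 3.12, Cr2 by 2.76 and Blnk by -1.61. The median over the 8 genes was 1.38, and over all genes 0. This 1.38 is the midpoint between Pax5, at 0 because its kept rows were at 0 in both libraries, and Cr2 at 2.76. It is near the difference of no member. With all rows summed, the difference of Blnk was -0.90, short of 2-fold, and Pax5 differed by 1.60. Between the libraries labelled CD4 and M1, 1 gene, Cd22, was higher in CD4 by 2.51 and 0 were lower, while 2.42% of all genes were higher and 2.49% lower. The median over the 8 genes was 0.04. The 3 comparisons share libraries and are not separate evidence. Many of all genes were at or near 0. Among the 12415 genes at 1 FPKM or more in at least 1 library of the pair, 16.9% were higher and 14.5% lower in M2 against M1, and of the 8 members 6 belong to this set.

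Other genes of mature B cells were examined from a list of 21. Of these, 16 were highest in the library labelled M2, and 19 reached 1 FPKM there against 7 in each of the others. The share of all genes that were highest in that library was not counted, for this list or those below. Of all 33506 genes, 11604 reached 1 FPKM in the library labelled M2, 10953 in M1 and 10987 in CD4. The median level of the list was 5.48 FPKM in the library labelled M2, 0.241 FPKM in M1 and 0.104 FPKM in CD4. The library labelled M2 was higher by at least 2-fold than M1 in 14 genes and lower in 1, with a median difference of 1.97, and higher than CD4 in 14 and lower in 2, with a median of 1.90. Over all genes, 6.27% were higher and 5.38% lower against M1, and 6.40% were higher and 5.68% lower against CD4. These shares belong beside the 2-fold counts of the lists below as well. Pou2af1, a transcriptional coactivator of B cells, was at 16.2, 0.0144 and 0.0536 FPKM in the libraries labelled M2, M1 and CD4. Cxcr5, the receptor that guides B cells into follicles, was at 5.48 FPKM in the library labelled M2 and listed at 0 in both others. Like Cd79a, both were highest in the library labelled M2. Cd37, a tetraspanin with the highest level of the list, was at 123 FPKM in the library labelled M2, 30.6 FPKM in M1 and 31.2 FPKM in CD4. Cd72, an inhibitory receptor like Cd22, was at 84.0 FPKM in the library labelled CD4, 16.0 FPKM in M1 and 15.4 FPKM in M2. Bank1, an adaptor like Blnk, was also highest in the library labelled CD4, at 9.66 FPKM, with 5.47 FPKM in M2 and 2.26 FPKM in M1. Fcrla was the list gene listed at 0 in the library labelled M2.

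**Figure D4:**
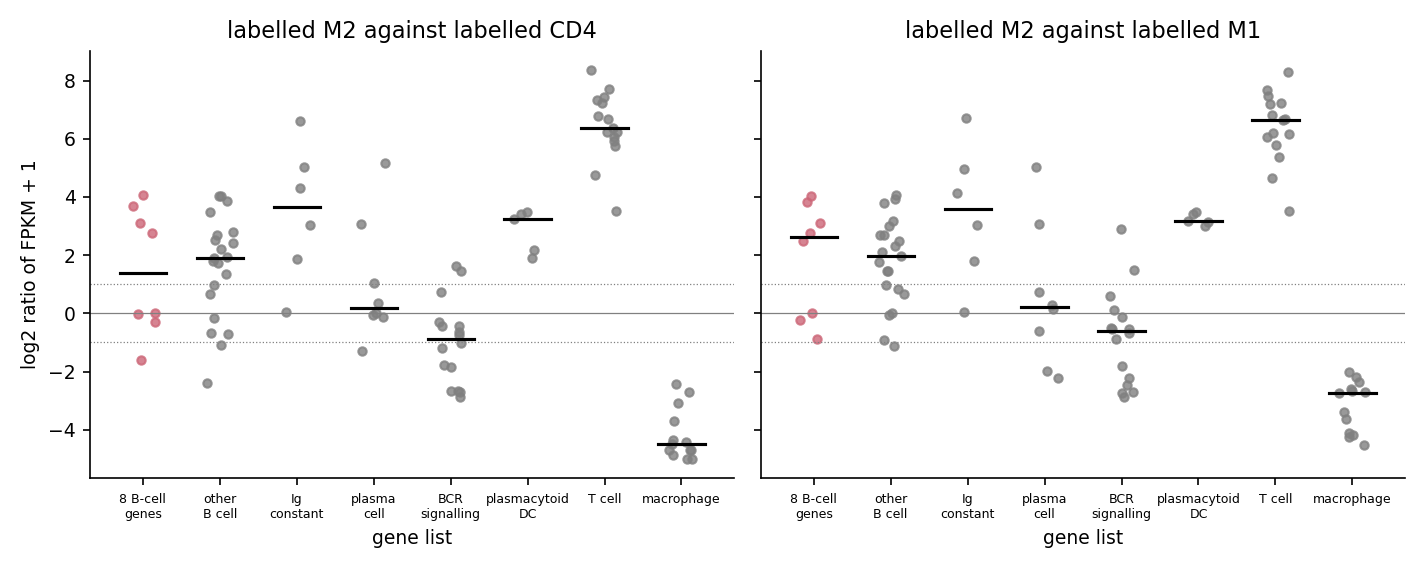
Difference in log2(FPKM + 1) between the library labelled M2 and that labelled CD4 (left) or M1 (right), with 1 point per gene, the 8 B-cell genes in red, a bar at each list's median and dotted lines at a 2-fold difference. The median of the 8 B-cell genes was 1.38 against the library labelled CD4 and 2.61 against M1, that of the T-cell genes 6.37 and 6.66, and that of the macrophage genes -4.49 and -2.74.

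Immunoglobulin is the ligand-binding part of the receptor that Cd79a and Cd79b serve. Of 12 constant region genes, 7 were found by symbol in the annotation and 6 had a usable row. All 6 were highest in the library labelled M2, 5 of them by at least 2-fold against each of the others. Igkc, the kappa constant gene and the highest of them, was at 155 FPKM in the library labelled M2, 0.474 FPKM in M1 and 0.614 FPKM in CD4. Iglc2, a lambda constant gene, was at 32.8, 0.0730 and 0.0228 FPKM in the libraries labelled M2, M1 and CD4. Ighg1, of the IgG1 heavy chain, was at 7.30 FPKM in the library labelled M2, listed at 0 in M1 and at 0.0129 FPKM in CD4. Ighe, listed as Gm900 and the lowest, was at 0.0228 FPKM in the library labelled M2 and listed at 0 in the others, so its order rests on a level near 0. Constant genes of a class are near-identical copies in part, and the way Cufflinks divides their reads leaves each level uncertain.

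The variable genes of immunoglobulin were spread over many members, a look chosen after their values were seen. Of 136 variable genes, 78 reached 1 FPKM in the library labelled M2 and 0 in the others. Of all 33506 genes, 11604 did so in the library labelled M2, 10953 in M1 and 10987 in CD4. Above 0 were 116 of the variable genes in the library labelled M2 and 31 in each of the others. By chain, 18 of 36 heavy, 59 of 97 kappa and 1 of 3 lambda variable genes reached 1 FPKM in the library labelled M2. The highest, Igkv1-117, was at 23.6 FPKM, which was 5.54% of their summed level of 427 FPKM. Variable genes share reads with near copies, so single levels are uncertain. The T cell receptor variable genes were spread likewise, with 49 of 70 at 1 FPKM or more in the library labelled M2 and 0 in the others.

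**Figure D5:**
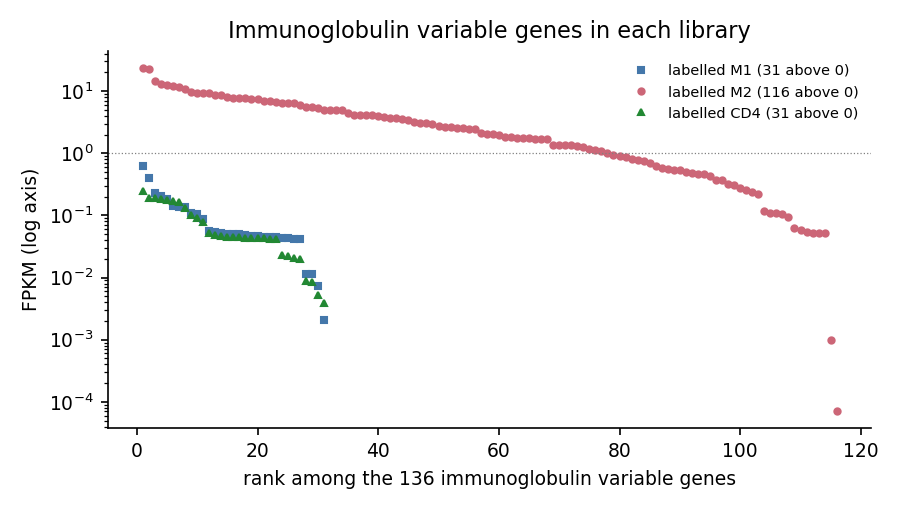
Level in FPKM (log axis) of the immunoglobulin variable genes with a value above 0, ranked within each library from the highest to the lowest, with a dotted line at 1 FPKM. In the library labelled M2, 116 of 136 genes were above 0 and 78 reached 1 FPKM, while 31 were above 0 and 0 reached 1 FPKM in each of those labelled M1 and CD4.

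Genes of antibody-secreting and of early B cells were set beside the members. Of 8 plasma cell genes, 4 were highest in the library labelled M2. That library was higher than M1 by at least 2-fold in 2 of them and lower in 2, with a median difference of 0.21. Against CD4 it was higher in 3 and lower in 1, with a median of 0.19. Igj, the joining chain of secreted IgM and IgA, was at 38.7 FPKM in the library labelled M2, 0.214 FPKM in M1 and 0.0955 FPKM in CD4. Mzb1, listed under its earlier symbol 2010001M09Rik, was at 7.58 FPKM in the library labelled M2 and at 0.0312 and 0.0147 FPKM in M1 and CD4. Xbp1 and Irf4, which other cells use as well, were highest in the library labelled M1, at 169 and 17.3 FPKM. Of 6 early B-cell genes, Dntt alone reached 1 FPKM, at 1.89 FPKM in the library labelled M2, and Vpreb1, Rag1 and Rag2 were listed at 0 in all 3 libraries.

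The genes that carry the signal from Cd79a and Cd79b had another order. Of 17 listed, 16 had a usable row, and the library labelled M2 was lower than M1 by at least 2-fold in 6 and higher in 2, and lower than CD4 in 8 and higher in 2. The median differences were -0.60 against M1 and -0.88 against CD4. All 16 reached 1 FPKM in the library labelled M2. Among all genes at 1 FPKM or more in at least 1 library of the pair, 16.9% were higher and 14.5% lower against M1. Against CD4 these shares were 17.3% and 15.3%. Lyn, the kinase that phosphorylates Cd79a and Cd22, was at 118 FPKM in the library labelled M1, 15.2 FPKM in M2 and 117 FPKM in CD4. Btk was at 40.6, 5.35 and 38.9 FPKM and Plcg2, the phospholipase that Blnk recruits, at 51.2, 8.48 and 32.9 FPKM in the same order. Syk, listed as Sykb, was at 62.3, 12.6 and 46.1 FPKM. These enzymes act in macrophages as well as in B cells, and their order was that of Blnk in standing lowest in the library labelled M2. Prkcb, a protein kinase C, was at 3.13, 30.2 and 50.8 FPKM in the libraries labelled M1, M2 and CD4, lowest in M1 as Cd22 was. Rasgrp3, the lowest of the list, was at 0.206, 2.41 and 0.253 FPKM, highest in the library labelled M2. The highest level of the list was that of Cd81, a partner of Cr2 on B cells, at 170 FPKM in the library labelled CD4.

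Markers of other cells differed between the same libraries. None of the 15 T-cell genes was listed at 0 in the library labelled M2, where they ranged from 11.0 to 434 FPKM. The plasmacytoid dendritic cell genes Siglech, Ccr9, Pacsin1, Klk1 and Cox6a2 were all highest in the library labelled M2, with a summed level of 62.4 FPKM there, 2.11 FPKM in M1 and 6.69 FPKM in CD4. The 8 B-cell genes summed to 68.0 FPKM in the library labelled M2, 23.4 FPKM in M1 and 49.1 FPKM in CD4, of which Blnk and Cd22 made up most in M1 and CD4. The part of these other cells in the levels of the B-cell genes was not tested.

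The genes nearest the mean shares of the members were sought among 6970 genes outside the lists with 10 FPKM or more in at least 1 library. The distance was Euclidean, between a gene's shares of its FPKM over the 3 libraries and the mean shares of 7 members, since Pax5 has none. The mean shares were 11.4% in the library labelled M1, 65.6% in M2 and 23.0% in CD4. The nearest 5 were Lnx2 at a distance of 0.0280, Fam193b at 0.0293, Birc6 at 0.0294, Gbp9 at 0.0298 and Atg16l2 at 0.0311. Lnx2 was at 2.13, 10.1 and 3.65 FPKM in the libraries labelled M1, M2 and CD4. The members' own shares in the library labelled M2 ranged from 0 for Cd79b to 99.6% for Cr2. They were 46.9% or less for Cd22, Blnk and Cd79b and 98.3% or more for Cd79a, Ms4a1, Cr2 and Fcer2a. No member was thus near the mean, and the 5 genes are not like any single member. The 0 of Cd79b, which was not taken as absence of the RNA and whose cause was not tested, enters the mean.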

How the data were processed

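RNA of the M1, M2 and CD4 T cell subsets was sequenced in 1 library per subset. The authors aligned paired reads to MM9 with Bowtie and TopHat, and assembled transcripts with Cufflinks guided by Ensembl. Their deposited table gives each transcript's level in FPKM. The submitters' processing notes also name Cuffdiff. Each column heading matches 1 sample title and was taken for that sample.

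The table held 135070 rows, 10182 of them without an identifier. Of 92519 identifiers, 90316 were found in the GENCODE annotation of NCBIM37, and 88278 of these had a row with values in all 3 columns, for 33506 genes. The first such row was kept and rows were summed per gene. Ratios were taken as log2(FPKM + 1), with a pseudocount of 1 FPKM. FPKM holds no depth, so the level of 1 fragment was read from the lowest clear peak of the product of FPKM and transcript length, over transcripts of 2500 to 8000 bases. Fragment numbers per gene are therefore estimates, and limits of 3 fragments cover counting error only.

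No test was made. For the counts past 2-fold of the members and lists, shares over all genes are given in the text. The medians of the 9 lists of related genes have no median over all genes beside them. The share of all genes highest in a library was not counted. The members and lists were chosen with earlier results of these data known. All members are named. Some list genes are not reported here by name and enter the lists' counts and medians alone. From other lists the genes named are those with the highest or lowest level, those a result turns on, and the 5 genes nearest the members' mean shares. Igj, Mzb1, Xbp1, Irf4, Dntt, Pou2af1, Cxcr5, Cd37, Bank1, Iglc2, Ighg1, Igkv1-117, Prkcb, Rpl6 and Rps23 were named after their values were seen. Alternatives were all rows of an identifier, other scalings, the highest or only protein-coding identifiers, another pseudocount and a filter on low values. The 2-fold calls and the estimate of depth were tried on simulated data, with planted changes far past the threshold. The other steps were not tried in this way. Calculations were done in Python 3.11.15 (numpy 2.4.6, pandas 2.3.3, matplotlib 3.10.9).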

Additional observations from a re-analysis of the deposited data

Results flagged for a closer look

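Rows of list genes that the rule left out, because they had no value in at least 1 library, held levels above that of 3 fragments where the kept rows gave 0 or no value. For Pax5 these were 0.798 FPKM in the library labelled M1, 6.49 FPKM in M2 and 1.48 FPKM in CD4. For Fcrla, a B-cell gene related to Fc receptors, all rows gave 1.53 FPKM in the library labelled M1 and 8.81 FPKM in M2, both at 0 in the kept rows. Ighm, the constant gene of IgM, had no usable row, and its other rows gave 11.5 FPKM in the library labelled M1, 346 FPKM in M2 and 64.9 FPKM in CD4.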

How the results depend on the processing

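Of 158 log2 differences of the members under alternatives, 130 moved by less than 1.5 times, as did 39 of 42 counts of members past 2-fold and 160 of 184 list medians, and 0 differences of at least 2-fold turned direction. Of smaller ones, the difference of Cd22 between the libraries labelled M2 and CD4 went from -0.04 to 0.12 after rescaling and to 0.0075 with all rows. That of Cr2 between CD4 and M1 went from -0.01 to 0.02 with all rows, and the median of the 21 other B-cell genes between CD4 and M1 from -0.0055 to 0.03 with the filter on low values. With all rows summed, 0 members were lower in the library labelled M2 than in CD4, the median difference was 2.48 in place of 1.38, and the median level in the library labelled M1 was 0.160 FPKM in place of 0.0927. With a pseudocount of 0.1 FPKM the members lower in the library labelled M2 numbered 1 against M1 and 2 against CD4, with medians of 4.41 and 2.88. The added gene was Cd79b, at -1.38 and -1.67, which rests on a level listed at 0. With FPKM scaled to sum to 1000000 in each library, the medians were 3.72 against M1 and 2.24 against CD4, and the median levels were 0.282 FPKM in the library labelled M1, 32.6 in M2 and 0.420 in CD4. With genes of at least 1 FPKM in 1 of the pair, the median was 2.94 for M2 against CD4 and 1.63 for CD4 against M1. The smaller pseudocount and the rescaling weigh low levels more by construction, and the filter leaves fewer members. Part of the tally of unmoved values was fixed in advance. The filter cannot change a member's difference or a 2-fold count, and left 14 differences and 6 counts the same. Protein-coding identifiers alone left 24 differences and 6 counts the same, since the members' other kept identifiers were at 0. The highest identifier could change Blnk alone.

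Levels of a few fragments limit the ratios of Ms4a1, Cr2 and Fcer2a. Neither the listings at 0 nor the choice between Cd22 variants was checked against reads. No paired analysis was possible because a second library of any subset is lacking among the samples used here.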

Other observations

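Rows outside the rule held a few levels far above the others of the same gene. Btk was at 5.35 FPKM in the library labelled M2 by its kept row and at 104937 FPKM over all rows. Cd5 was at 81.3 FPKM in the same library by its kept row and at 11066 FPKM over all rows. Among the members the highest rise from kept to all rows in the library labelled M2, apart from Pax5, was that of Blnk, from 11.6 to 19.5 FPKM, followed by Cr2, from 5.83 to 9.56 FPKM. The cause of these rows was not tested.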
